A study of Homo sapiens with 4 samples.

Results

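CD44, nestin and 7 further genes used as markers of stem-like cells were compared between libraries labelled 30 Gy and libraries labelled 0 Gy of a human lung squamous carcinoma line. The 9 members were taken by gene name from the deposited table of 58735 genes: the surface proteins CD44, PROM1 (CD133), CD24, EPCAM, THY1 (CD90), NT5E (CD73) and ENG (endoglin, CD105), the intermediate filament gene NES (nestin), and BMI1, a Polycomb protein of the nucleus. Each name matched 1 row. The gray (Gy) is the unit of absorbed radiation dose. There were 2 libraries at 30 Gy and 2 at 0 Gy. SK-MES-1 and SK-MES-1-RR, a line resistant to radiotherapy, are named in the design, but not which libraries came from which, so dose and line cannot be told apart. How the dose was given, the time until RNA was taken, and whether replicates were separate cultures are not given in the labels, so each p-value reflects the spread among these particular libraries, which may be technical.

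CD44 is a receptor for the matrix polysaccharide hyaluronan, and its RNA is spliced into a standard form and variant forms. NT5E, THY1 and ENG are the surface triad by which mesenchymal stromal cells are recognised, while EPCAM and CD24 are typical of epithelial cells. Nestin marks neural progenitor cells and is also found in other dividing or regenerating tissues. PROM1 and the pair CD44 and CD24 have been used to sort tumour-initiating cells from several carcinomas, and BMI1 keeps cell cycle inhibitor genes silent in stem cells.

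The 9 markers did not move as 1 group. CD44 and NT5E were more than 2-fold higher at 30 Gy, NES was about 3-fold lower, and ENG, BMI1, EPCAM and CD24 did not pass the test. THY1 was too low to be tested and PROM1 was listed at 0 in every library. Values are FPKM, fragment counts scaled to gene length and library depth, as deposited. A gene was tested when 2 or more libraries reached an FPKM of 1, which kept 13379 genes and 7 of the 9 members. The test was limma on log2(FPKM + 1), with Benjamini-Hochberg adjustment over all 13379 genes and a threshold of 0.05. Each log2 change is the 30 Gy mean minus the 0 Gy mean of log2(FPKM + 1) and understates the change of low genes. Fold values are ratios of mean FPKM.

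Of the 7 tested members 3 passed, against 19.8% of all tested genes. Higher at 30 Gy were 2 members (10.8% of all tested genes) and lower was 1 (9.06% of all). For 6 of the 7, both 30 Gy libraries lay on the same side of both 0 Gy libraries (4 above, 2 below), against 65.2% of all tested genes, so such separation was common in this comparison. The median log2 change of the 7 was 0.15, against -0.000677 over all tested genes.

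Bases before a RefSeq start site are shown for the 3 members that changed, CD44 and NT5E, which rose, and NES, which fell. RefSeq start sites (GRCh38.p14) were found for 7 of the 9 members, and the 250 bases before each start were searched on both strands. The stretches of 30 bases below are written 5′ to 3′ on the gene's strand, with matches to the GC box GGGCGG on either strand in capitals. For CD44 and NT5E all 250 bases lie inside exons of GENCODE v29, which starts these genes further upstream, whereas for NES 0 of the 250 do, so the windows are not alike in this respect. The stretches lie at chr11:35138998-35139027 (plus strand) for CD44, at chr6:85450010-85450039 (plus strand) for NT5E and at chr1:156677446-156677475 (minus strand) for NES.
CD44: acgGGGCGGgggcagaggggcCCGCCCggg
NT5E: cCCGCCCcggccttgacccgggccCCGCCC
NES: tgggtcCCGCCCctcttcCCGCCCgcctgg
Each of the 3 genes had 2 GC boxes in its 250 bases, in the members that rose and in the one that fell alike. The GC box was found in 42.6% of all 35116 windows of this length. None of the 3 windows held the AP-1 letters TGANTCA (6.57% of all windows), the TEAD letters GGAATG (11.9%) or the TATA box TATAAA (10.7%). The antioxidant response element core TGACNNNGC stood once before CD44 and once before NT5E and was not found before NES, against 10.9% of all windows. It was also found before ENG, CD24 and PROM1, members that did not pass or were listed at 0. A match describes letters only and does not show that a factor binds there.

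The whole 250 bases before NES, at chr1:156677408-156677657 on the minus strand, overlap no exon of GENCODE v29 and are given because NES had the largest change of the members, with the same GC boxes in capitals.
NES: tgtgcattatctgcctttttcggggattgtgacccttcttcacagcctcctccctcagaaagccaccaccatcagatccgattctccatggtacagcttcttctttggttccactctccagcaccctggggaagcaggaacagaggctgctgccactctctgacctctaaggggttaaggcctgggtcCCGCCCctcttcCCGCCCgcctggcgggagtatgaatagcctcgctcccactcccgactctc
These bases were 58.0% G and C, the same as the median of all windows, against 62.4% before CD44 and 75.2% before NT5E.

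**Figure D1:**
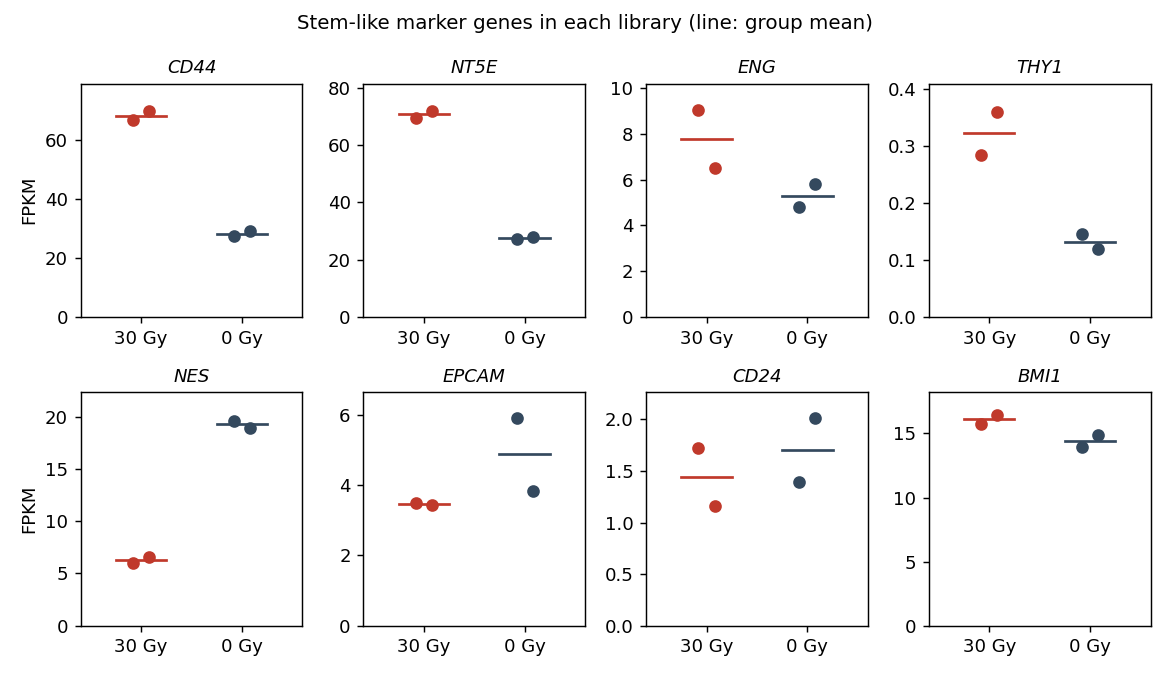
FPKM of 8 markers in each library (vertical axes in FPKM, each with its own scale from 0), 30 Gy in red on the left and 0 Gy in dark blue on the right; points are libraries and lines are group means. CD44 and NT5E sit near 70 FPKM at 30 Gy against near 28 at 0 Gy, NES is at 5.95 and 6.60 against 19.6 and 18.9, and the CD24 groups overlap.

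CD44 (ENSG00000026508, 11:35138870-35232402, plus strand, hg38) was at 66.5 and 69.7 FPKM in the 30 Gy libraries, against 27.5 and 28.9 FPKM in the 0 Gy libraries. Both 30 Gy libraries stood well above both 0 Gy libraries. CD44 averaged 68.1 ± 2.22 FPKM in the 30 Gy libraries and 28.2 ± 1.02 FPKM in the 0 Gy libraries (SD, n = 2 each), a 2.41-fold rise, from 10625 and 11088 reads at 30 Gy and 4785 and 4918 at 0 Gy. The log2 change was 1.24 ± 0.06 (SE; limma adjusted p = 0.00176), and 1.63% of all tested genes had a larger absolute change. Gene-level FPKM cannot separate the standard form from the variant forms. ESRP1, a splicing factor that favours the variant forms in epithelial cells, was listed at 0 in both 30 Gy libraries. In the 0 Gy libraries ESRP1 was at 0.0471 and 0.229 FPKM, below the testing filter. Its relative ESRP2, also below the filter, was at 0.428 and 0.407 FPKM at 30 Gy, against 0.837 and 0.656 FPKM at 0 Gy. CD44-AS1, which overlaps CD44 on the opposite strand, had 3 and 17 reads at 30 Gy and 0 and 1 at 0 Gy, few beside those of CD44.

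NT5E (ENSG00000135318, 6:85449584-85495791, plus strand) encodes the ectoenzyme that turns extracellular AMP into adenosine. It was at 69.5 and 71.8 FPKM in the 30 Gy libraries, against 27.25 and 27.95 FPKM in the 0 Gy libraries. The groups were far apart, with little spread within either. NT5E averaged 70.6 ± 1.57 FPKM in the 30 Gy libraries and 27.6 ± 0.496 FPKM in the 0 Gy libraries (SD, n = 2 each), a 2.56-fold rise with a log2 change of 1.32 ± 0.06 (SE; limma adjusted p = 0.00122). CD44 and NT5E were nearly equal in every library: the ratio of NT5E to CD44 FPKM was 1.05 and 1.03 at 30 Gy, against 0.992 and 0.967 at 0 Gy.

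NES (ENSG00000132688, 1:156668763-156677397, minus strand) was at 5.95 and 6.60 FPKM in the 30 Gy libraries, against 19.6 and 18.9 FPKM in the 0 Gy libraries. Both 30 Gy libraries lay far below both 0 Gy libraries. NES averaged 6.28 ± 0.463 FPKM in the 30 Gy libraries and 19.2 ± 0.508 FPKM in the 0 Gy libraries (SD, n = 2 each), 3.07-fold lower at 30 Gy, with a log2 change of -1.48 ± 0.08 (SE; limma adjusted p = 0.00176). The ratio of NES to CD44 FPKM was 0.0894 and 0.0948 at 30 Gy, against 0.713 and 0.653 at 0 Gy. Only 0.86% of tested genes had a larger absolute change than NES.

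The calls on CD44, NT5E and NES held without the first and without the second 30 Gy library, at adjusted p of 0.0183 to 0.0212. Without the first 0 Gy library the adjusted p of limma was 0.0699 for CD44, 0.0673 for NT5E and 0.0760 for NES, and without the second 0.0696, 0.0686 and 0.0734. A lone 0 Gy library is assumed to vary like the 30 Gy group, and no gene at all passed in either of these fits (0 of 13379, with 3422 and 3460 at an unadjusted p under 0.05). The log2 changes themselves stayed between 1.21 and 1.28 for CD44, 1.30 and 1.35 for NT5E and -1.54 and -1.41 for NES over the 4 fits.

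ENG (ENSG00000106991, 9:127815012-127854756, minus strand), a co-receptor for ligands of the TGF-beta family, was at 9.06 and 6.50 FPKM at 30 Gy, against 4.79 and 5.80 FPKM at 0 Gy. The groups did not overlap, but the 30 Gy libraries differed from each other by more than the lower of them differed from the higher 0 Gy library. The log2 change was 0.47 (95% interval 0.04 to 0.90) and did not pass (limma adjusted p = 0.111), while limma's voom on reads recovered from the FPKM gave 0.53 with an adjusted p of 0.0182. Without the first 30 Gy library the log2 change was 0.26. An antisense gene over ENG, AL162586.1, had 31 and 48 reads at 30 Gy and 40 and 54 at 0 Gy, against 569 and 407, and 328 and 388, for ENG.

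THY1 (ENSG00000154096, 11:119417378-119424985, minus strand), a small surface glycoprotein anchored in the membrane by a lipid, was at 0.285 and 0.361 FPKM at 30 Gy, against 0.145 and 0.119 FPKM at 0 Gy. These were 27 and 34 reads at 30 Gy and 15 and 12 at 0 Gy, all above the detection floor of 3 reads (0.0291 to 0.0318 FPKM). Both 30 Gy libraries were higher, but at these levels the gene was left out of the main test. When every gene above 0 was tested, its log2 change was 0.22 (adjusted p = 0.230). Of the mesenchymal triad, then, 1 gene was high and rose, 1 was moderate and did not pass, and 1 was barely detected.

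**Figure D2:**
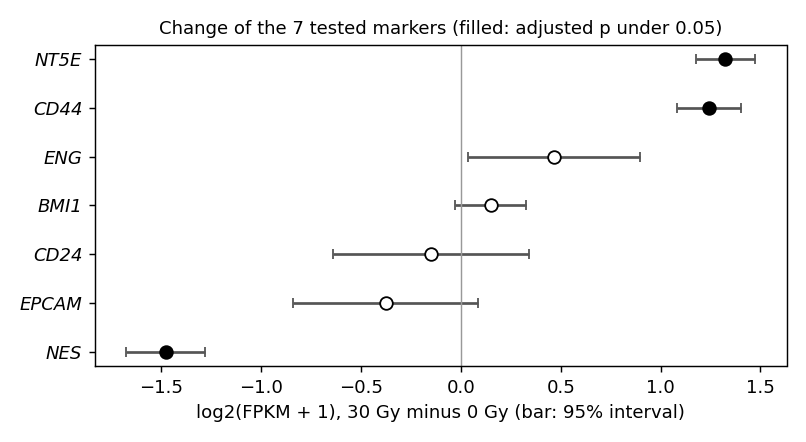
Log2(FPKM + 1) change of the 7 tested markers, 30 Gy minus 0 Gy, with bars for the 95% interval of limma and filled points for an adjusted p under 0.05. NT5E and CD44 lie at 1.32 and 1.24, NES at -1.48, and the intervals of BMI1, CD24 and EPCAM include 0.

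EPCAM (ENSG00000119888, 2:47345158-47387601, plus strand), an adhesion molecule of epithelial cells, was at 3.48 and 3.42 FPKM at 30 Gy, against 5.91 and 3.83 FPKM at 0 Gy. The 0 Gy libraries differed from each other more than the 30 Gy libraries differed from the lower of them. The log2 change was -0.38 (95% interval -0.84 to 0.09; limma adjusted p = 0.199). It was -0.12 without the first 0 Gy library and -0.63 without the second. CD24 (ENSG00000272398, 6:106969831-106975627, minus strand), a small heavily glycosylated surface protein, was at 1.72 and 1.16 FPKM at 30 Gy, against 1.39 and 2.01 FPKM at 0 Gy. The groups overlapped, with 57 to 106 reads a library, and the log2 change of -0.15 had a 95% interval of -0.64 to 0.34 (limma adjusted p = 0.614). Leaving out 1 library gave -0.32 to 0.02, so its sign was not fixed. CD24 has processed pseudogene copies, so the assignment of its reads is uncertain. CD24P1 and CD24P2 were listed at 0 reads, but copies on the Y chromosome were not looked up.

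The ratio of CD44 to CD24 FPKM was 38.7 and 60.2 at 30 Gy, against 19.8 and 14.4 at 0 Gy. This is a description of both genes' levels with no test of its own, and CD24 itself did not pass. RNA from a whole culture gives no share of cells carrying CD44 without CD24, and more positive cells cannot be told apart from more RNA per cell for any gene here.

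PROM1 (ENSG00000007062, 4:15963076-16084378, minus strand), a pentaspan protein of membrane protrusions, was listed at 0 reads in the 4 libraries. A floor of 3 reads stands at 0.0232 to 0.0254 FPKM here, and a difference below it was not detectable. Its paralog PROM2 was at 0.248 and 0.166 FPKM at 30 Gy and 0.180 and 0.116 FPKM at 0 Gy, also below the testing filter.

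BMI1 (ENSG00000168283, 10:22321211-22331484, plus strand), a subunit of Polycomb repressive complex 1, was at 15.8 and 16.4 FPKM at 30 Gy, against 13.9 and 14.9 FPKM at 0 Gy. The groups lay close together without overlap. Its log2 change of 0.15 (95% interval -0.03 to 0.33) did not pass (limma adjusted p = 0.184), and its upper bound of 0.33 lies below the lower bound of 1.08 for CD44. The readthrough gene COMMD3-BMI1, which overlaps BMI1 on the same strand, was listed at 0 reads in the 4 libraries.

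The order of the levels differed between the groups. At 30 Gy it ran from NT5E and CD44, whose ranges overlapped, through BMI1 to ENG and NES, which overlapped each other, then EPCAM, CD24, THY1 and PROM1. At 0 Gy it ran from CD44 and NT5E, again overlapping, through NES to BMI1, then ENG and EPCAM, which overlapped, CD24, THY1 and PROM1. The other neighbours in each order were apart in both libraries. NES stood below BMI1 at 30 Gy and above it at 0 Gy.

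Of the 10 genes nearest to CD44 on the short arm of chromosome 11, 5 tested genes on each side, 0 rose and 7 fell at 30 Gy, against 10.8% risen and 9.06% fallen among all tested genes, and 3 did not pass, with log2 changes of -1.09 to -0.21 and a median of -0.58, all at a distance of at most 1157 kb. FJX1, 479.5 kb after CD44, fell by 1.09, and PDHX, a pyruvate dehydrogenase subunit 223 kb before it, fell by 0.62. Distances between genes are taken throughout between their lowest chromosome positions, whatever the strand or gene length. Of the 7 falls, PRR5L missed the threshold without the first 30 Gy library (limma adjusted p = 0.0662), and PRR5L and CAT missed it without the second (0.0817 and 0.0576). When every gene above 0 was tested, CAT, TRIM44 and PRR5L missed it (0.0533, 0.0695 and 0.0915). CD44 itself was at 1.24. The 10 genes around NT5E included 1 that fell, ME1, malic enzyme, at -0.86, and 0 that rose. Of the 10 around NES within 74.28 kb, 5 fell by 0.45 to 0.56 and 0 rose; 4 of these 5 missed the threshold without the first 30 Gy library (adjusted p up to 0.0836) and all 5 without the second (up to 0.105) and when every gene above 0 was tested (0.0538 to 0.137). AL590666.2 also missed it without the trend (0.0538) and CRABP2 with the replicate block (0.0550).

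**Figure D3:**
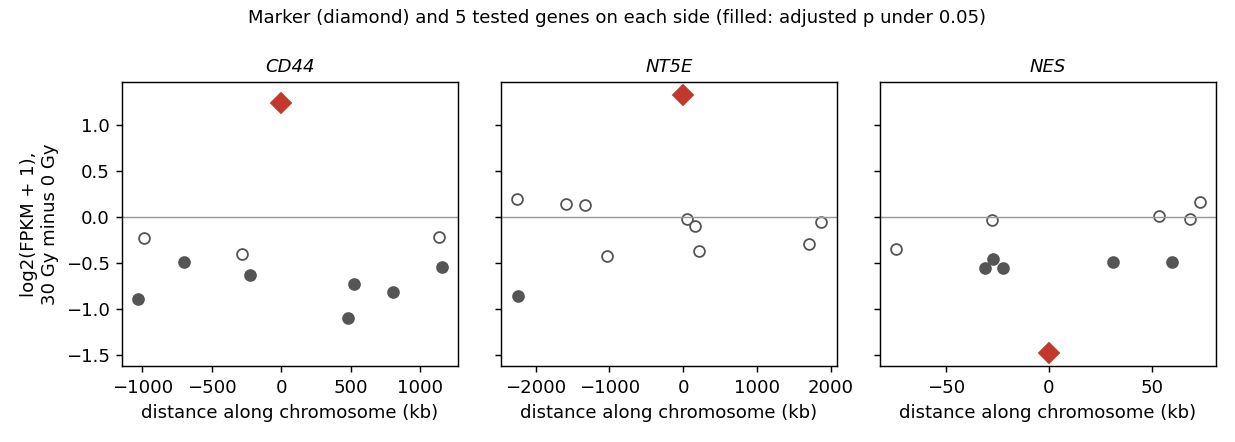
Log2(FPKM + 1) change, 30 Gy minus 0 Gy, of CD44, NT5E and NES (red diamonds) and of 5 tested genes on each side (circles, filled for an adjusted p under 0.05) against distance along the chromosome in kb. CD44 lies at 1.24 above neighbours that run from -1.09 to -0.21, and NES at -1.48 below all of its neighbours.

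Of 16 tested hyaluronan genes and partners of CD44, 8 rose, 1 fell and 7 did not pass at 30 Gy, with a median log2 change of 0.31, against 10.8% risen, 9.06% fallen and a median of -0.000677 among all tested genes. HAS3, a hyaluronan synthase, was at 2.06 and 2.04 FPKM at 30 Gy, against 0.858 and 0.567 FPKM at 0 Gy (log2 change 0.84, limma adjusted p = 0.0237). HMMR, a hyaluronan receptor that also binds the mitotic spindle, was at 25.2 and 26.1 FPKM, against 13.8 and 15.9 FPKM at 0 Gy, and VCAN, a proteoglycan that binds hyaluronan, at 39.9 and 41.9, against 21.0 and 24.5 FPKM. Each of these genes was higher in both 30 Gy libraries than in both 0 Gy libraries. Groups that did not overlap, in either direction, were seen for 65.2% of all tested genes. Genes for the proteins that tie the CD44 tail to actin rose too, RDX (radixin) by 0.59, MSN (moesin) by 0.35 and EZR (ezrin) by 0.26 on the log2 scale. So did their relative NF2 (merlin) by 0.64 and the hyaluronidase gene HYAL2 by 0.47. SPP1, osteopontin, a secreted ligand of CD44, fell to 84.5 and 88.2 FPKM at 30 Gy, against 132 and 126 FPKM at 0 Gy. HAS3, HYAL2, EZR and MSN missed the threshold without the first 30 Gy library (limma adjusted p of 0.0826 to 0.152), and these and RDX without the second (0.0501 to 0.101). When every gene above 0 was tested, 2 rises and 1 fall were left, and HAS3, HYAL2, HMMR, VCAN, EZR and MSN missed the threshold (0.0533 to 0.120). EZR also missed it after quantile normalization (0.129), after rescaling to equal sums (0.0929), without the trend (0.0867) and with the replicate block (0.0821).

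Most other genes of the neural progenitor state were absent or did not pass. Of 18 genes listed beside nestin 5 were tested, 1 rose and 0 fell (20% called, against 19.8% of all tested genes), with a median log2 change of -0.15. The one that rose was VIM, vimentin, the filament protein with which nestin assembles, at 511 and 503 FPKM at 30 Gy, against 215 and 238 FPKM at 0 Gy (log2 change 1.16, limma adjusted p = 0.00239). NES and VIM therefore moved in opposite directions. SYNM (synemin) and INA (alpha-internexin), other filament proteins, had log2 changes of -0.22 and 0.13 and did not pass. With voom on the recovered reads SYNM passed as lower (adjusted p = 0.0462), as did MSI2 of the same list (0.00222). SOX1, MSI1, NEFL, DCX and FABP7 were listed at 0 in every library.

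Pluripotency factors were at or near 0, apart from the widely expressed MYC and KLF4. MYC was at 72.7 and 63.7 FPKM at 30 Gy, against 112 and 105 FPKM at 0 Gy, and KLF4 at 11.3 and 11.8, against 14.7 and 16.0 FPKM. Both fell, by 0.66 (limma adjusted p = 0.0113) and 0.38 (0.0267) on the log2 scale, and they were the only 2 of 12 genes high enough to be tested; KLF4 missed the threshold without the first (0.102) and without the second 30 Gy library (0.0809). When every gene above 0 was tested, both missed it (MYC 0.0674, KLF4 0.0858). Among all genes of the main test 9.06% fell and 10.8% rose, and 2 tested genes are too few to describe the 12. NANOG, LIN28A, DPPA4 and TDGF1 were listed at 0, and POU5F1 was at 0.218 to 0.326 FPKM in the 4 libraries.

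Among 9 tested genes on a list of other stem-like markers 3 rose and 0 fell (33.3% called, against 19.8% of all tested genes), with a median log2 change of 0.20. PODXL, podocalyxin, a sialomucin related to CD34, was at 6.94 and 6.89 FPKM at 30 Gy, against 1.92 and 2.04 FPKM at 0 Gy (3.50-fold, log2 change 1.41, limma adjusted p = 0.00193). MCAM (CD146) was at 22.2 and 21.0 FPKM, against 10.1 and 10.2 FPKM, and CD9 at 24.95 and 23.7, against 16.5 and 16.6 FPKM at 0 Gy. All 3 encode surface proteins. For each, both 30 Gy libraries were above both 0 Gy libraries, while 65.2% of all tested genes had groups that did not overlap in either direction. MCAM lies 108.8 kb from THY1. ALDH1A3, an aldehyde dehydrogenase used as a tumour stem cell marker, was at 17.3 and 16.4 FPKM, against 17.0 and 18.1 FPKM, and did not pass (log2 change -0.06), nor did ABCG2, a drug efflux pump, at 1.49 and 2.08, against 2.26 and 2.50 FPKM.

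Relatives and partners of EPCAM, CD24 and PROM1 gave 1 fall and 0 rises among 8 tested genes (12.5% called, against 19.8% of all), with a median log2 change of -0.21. TSPAN8, a tetraspanin that associates with EPCAM, was at 14.99 and 15.5 FPKM at 30 Gy, against 23.7 and 22.5 FPKM at 0 Gy (log2 change -0.57, limma adjusted p = 0.00839). GRHL2 and OVOL1, transcription factors of epithelial cells, were listed at 0 in all libraries.

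Around NT5E, 1 of 8 tested adenosine genes rose and 0 fell (12.5% called, against 19.8% of all tested genes), with a median log2 change of 0.11. SLC29A1, the equilibrative nucleoside transporter ENT1, which moves adenosine across the plasma membrane, was at 16.9 and 18.0 FPKM at 30 Gy, against 9.998 and 8.61 FPKM at 0 Gy (log2 change 0.84, limma adjusted p = 0.00752, and 0.0527 when every gene above 0 was tested). ENTPD1 (CD39), which supplies AMP to NT5E, was at 0.350 and 0.360 FPKM, against 0.610 and 0.439 FPKM, below the filter. ENPP1, another gene of this list, was at 2.36 and 2.55 FPKM at 30 Gy, against 1.70 and 1.40 FPKM at 0 Gy. ENPP1 did not pass (log2 change 0.44, limma adjusted p = 0.0637), but did without the trend (0.0481) and with voom (0.00229). ENTPD6 (log2 change -0.24) did not pass in the main test and passed as lower with voom (0.0270). ADORA2B was the adenosine receptor with a level above the filter, at 13.7 and 12.5 FPKM at 30 Gy and 11.7 and 10.9 FPKM at 0 Gy, and it did not pass (adjusted p = 0.143).

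Of 14 tested genes of the endoglin receptor complex and its BMP readouts 4 rose and 1 fell (35.7% called, against 19.8% of all), with a median log2 change of 0.04. TGFBR2, the type II TGF-beta receptor, was at 30.3 and 34.9 FPKM at 30 Gy, against 19.96 and 22.3 FPKM at 0 Gy, and MMP14, the membrane protease that cuts endoglin from the cell surface, at 81.1 and 75.2, against 49.7 and 47.7 FPKM. BMPR2 and the inhibitor SMAD7 rose by 0.36 and 0.39 on the log2 scale. ID2, an inhibitor of helix-loop-helix factors, fell to 8.44 and 10.2 FPKM at 30 Gy, against 17.4 and 18.0 FPKM at 0 Gy. The more abundant ID1 and ID3 did not pass. ID1 averaged 151 FPKM at 30 Gy and 133 at 0 Gy (log2 change 0.18, limma adjusted p = 0.147). ID3 averaged 107 and 108 FPKM (log2 change -0.02, limma adjusted p = 0.899). Without the first 30 Gy library BMPR2 and SMAD7 missed the threshold (limma adjusted p = 0.0790 for each), and without the second BMPR2, TGFBR2 and SMAD7 did (0.101, 0.0671 and 0.0942). When every gene above 0 was tested, these 3 and ID2 missed it (0.0576 to 0.0898), and SMAD7 also did with the replicate block (0.0507). ACVRL1 (ALK1), the receptor that partners ENG in endothelial cells, was at 0.0497 FPKM in 1 library of the 30 Gy group and listed at 0 in the others.

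Polycomb repressive complex 1 genes other than BMI1 gave 0 rises and 4 falls among 19 tested, with a median log2 change of -0.11. This was 21.1% called, near the 19.8% of all tested genes. Among them the chromobox gene CBX6 fell by 0.56, PCGF3 by 0.44 and SCMH1 by 0.34 on the log2 scale, with CBX6 at 12.2 and 12.4 FPKM at 30 Gy, against 18.6 and 18.8 FPKM at 0 Gy. Without the first 30 Gy library PCGF3 and SCMH1 missed the threshold (limma adjusted p = 0.0666 and 0.102), and likewise without the second (0.0571 and 0.0730). Of the 4 falls, 2 still passed in the first of these fits and 1 in the other. PCGF3 and SCMH1 also missed the threshold when every gene above 0 was tested (0.0505 and 0.0762), and SCMH1 with the replicate block (0.0518). RNF2, the catalytic subunit, was at 6.21 and 7.25 FPKM at 30 Gy and 7.17 and 6.98 FPKM at 0 Gy. CDKN2A and CDKN2B, the cell cycle inhibitors that BMI1 is known to silence, were listed at 0 in the 4 libraries, so no change of these targets could be seen.

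**Figure D4:**
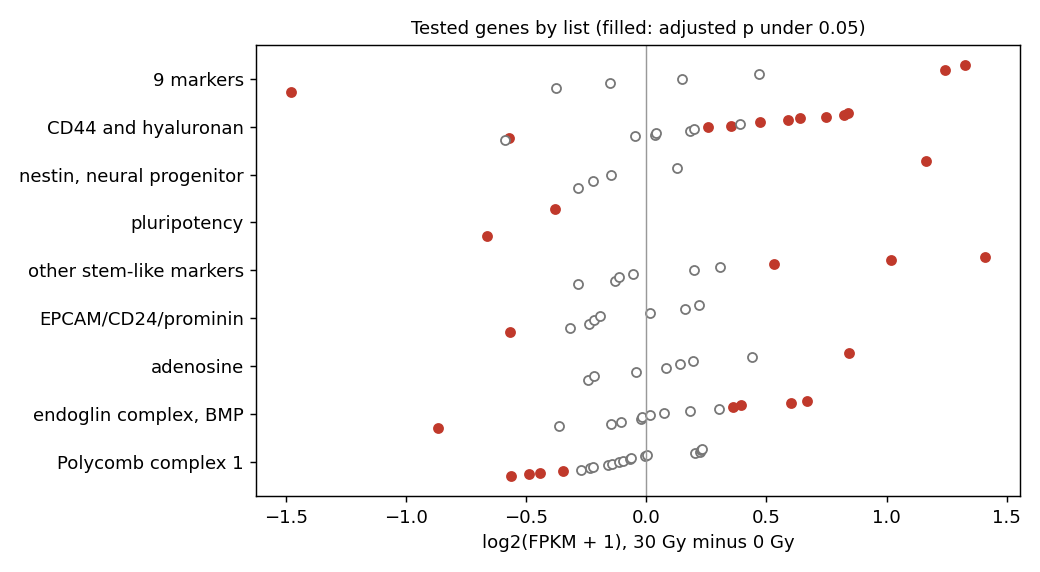
Log2(FPKM + 1) change, 30 Gy minus 0 Gy, of every tested gene in the 9-marker set and 8 related lists, 1 row a list, filled for an adjusted p under 0.05. The CD44 and hyaluronan list has 8 filled points above 0 and 1 below, and the Polycomb list has 4 filled points, all below 0.

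The genes whose centred log2(FPKM + 1) profile over the 4 libraries lay nearest to CD44, among 11124 other protein-coding genes tested, were GALNT10, a glycosyltransferase that starts O-linked sugar chains, LGR4, a receptor for R-spondins, and COL4A1, a basement membrane collagen. Their Euclidean distances from CD44 were 0.0164, 0.0394 and 0.0659, and NT5E was the 5th nearest at 0.0870. GALNT10 was at 32.7 and 33.9 FPKM at 30 Gy, against 13.3 and 13.8 FPKM at 0 Gy. Nearest to NES were BEX2 (0.138), the ciliary factor FOXJ1 (0.156) and GCLC (0.164), an enzyme of glutathione synthesis that was at 40.0 and 41.2 FPKM, against 122 and 128 FPKM at 0 Gy. With 4 libraries in 2 groups such likeness mostly states a similar size of change.

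The marker lists of cell types set the context. Of 12 squamous carcinoma markers 3 were tested and none passed with limma at an adjusted p under 0.05; KRT5, KRT6A, KRT6B and DSG3 were listed at 0, TP63 was at 3.34 and 3.19 FPKM at 30 Gy, against 3.95 and 4.14 FPKM at 0 Gy (log2 change -0.24), and PKP1 changed by -0.20. The label of squamous carcinoma thus lacked several defining keratins in these RNAs. The list did not move 1 way. SERPINB5, also tested, changed by 0.07. Below the filter, DSC3 was at 0.621 and 0.650 FPKM at 30 Gy, against 0.350 and 0.275 FPKM at 0 Gy. SOX2, also on this list, was at 0.548 and 0.475, against 0.252 and 0.0936 FPKM. TRIM29 was lower, at 0.0490 and 0.0554, against 0.180 and 0.144 FPKM. With voom on the recovered reads TP63 and PKP1 passed (adjusted p = 0.0426 and 0.0407). Of the tested markers, 2 of 3 squamous and 2 of 2 fibroblast markers had an unadjusted limma p under 0.05. So did 5049 of all 13379 tested genes. Of 10 fibroblast markers 2 were tested and 0 passed in the main test. PDGFRB was at 1.46 and 1.51 FPKM at 30 Gy, against 0.652 and 0.717 FPKM at 0 Gy (log2 change 0.56, limma adjusted p = 0.0535). COL1A1 was at 76.3 and 69.6, against 62.1 and 62.4 FPKM (log2 change 0.22, limma adjusted p = 0.0795). Both passed with voom (adjusted p = 0.00109 and 0.0189), and PDGFRB also passed with limma without the trend (adjusted p = 0.0205). The summed FPKM of the 10 was 73.4 to 80.5 at 30 Gy, against 63.2 to 63.7 at 0 Gy, nearly all of it COL1A1, while DCN was at 0 and COL1A2 and POSTN at or near 0. Of others on that list, LUM was at 0.895 and 1.32 FPKM at 30 Gy, against 0.0191 and 0.0978 FPKM at 0 Gy, and FAP at 0.188 and 0.251, against 0.0164 and 0.0336 FPKM. ACTA2 had 76 and 25 reads at 30 Gy, against 18 and 21 at 0 Gy, COL3A1 4 and 6, against 1 and 1, and PDGFRA 13 and 30, against 13 and 5. None of these 5 passed the filter. The part of these differences in the changes of CD44, NT5E, ENG and THY1 was not tested. The 10 endothelial markers summed to 0.226 to 0.299 FPKM at 30 Gy and 0.239 to 0.244 at 0 Gy, with CDH5, ERG and EMCN at 0. Of the markers that mesenchymal stromal cells lack, CD34 was at 0, and HLA-DRB1 and HLA-DRA fell to 4.43 and 3.68 and to 1.66 and 1.72 FPKM at 30 Gy, against 14.6 and 12.3 and 5.70 and 4.78 FPKM at 0 Gy. Reads of HLA-DR genes may be divided among near-identical relatives, and these values are uncertain.

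The recovered depth was 15920861 to 17261121 reads a library. The median absolute log2 difference between a pair of libraries was 0.218 to 0.224 across the groups and 0.0984 to 0.111 within them.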

How the data were processed

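RNA of 4 libraries from the cell line was extracted with Trizol and sequenced by standard Illumina preparation, per the labels' protocols. The authors deposited 1 table of FPKM values per gene with gene lengths and positions. Coordinates are those of hg38, a build listed in the submitters' processing notes. The sources used here name no aligner or counting tool, nor whether strand was used. Multiplying FPKM by gene length and dividing by the value of 1 read in that library gave whole reads for 100% of values above 0 (tolerance 0.001 read), used for depth, for floors of 3 reads (counting error only) and for voom.

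The comparison of 30 Gy with 0 Gy used limma 3.58.1 in R 4.3.3 (two-sided, eBayes with an intensity trend) and a pseudocount of 1, without a block. A permutation test of 2 against 2 cannot go below a two-sided p of 0.333 and was not used. The named genes are all members, up to 4 called genes of each list with the largest absolute change (up to 2 if none was called), the 3 nearest profiles to CD44 and NES, and genes that complete a count or describe a neighbourhood or a level, which were chosen after their values were seen. A few list genes are counted but not reported here by name. Members and lists were chosen with earlier results of these data known. Promoter sequences are RefSeq's (GRCh38.p14), gene models GENCODE v29.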

Additional observations from a re-analysis of the deposited data

How the results depend on the processing

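The number of genes called was 2654 of 13379 in the test reported. It was 604 of 30687 when every gene above 0 was tested and 4227 of 13379 with voom on the recovered reads. Leaving out 1 library gave 0 to 898 genes and 0 to 3 of the 7 members, with 0 when either 0 Gy library was absent. The counts under a pseudocount of 0.1, a minimum FPKM of 5, quantile normalization, median centring, equal sums and eBayes without trend or robust stayed within 1.5 times of 2654. CD44, NT5E and NES passed in every alternative that kept both 0 Gy libraries, and ENG passed with voom only. With a replicate block 1926 genes passed; the deviations of same-numbered libraries had a correlation of -0.0263, so the numbers were not taken to pair the libraries. No gene named as called turned its direction in any alternative. Depth limits what can be said of PROM1, THY1 and CD24, which had 0 to 106 reads a library.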

Other observations

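Of the genes on the lists, 69 had reads but fell below the filter. When every gene above 0 was tested with limma, 0 of them passed at an adjusted p under 0.05 and 10 had an unadjusted p under 0.05. Among all 30687 genes of that fit, 604 passed and 6111 had an unadjusted p under 0.05. The following of the 69 were singled out after their values were seen. HAS2, a hyaluronan synthase, had 61 and 61 reads at 30 Gy, against 17 and 8 reads at 0 Gy (0.912 and 0.915 FPKM, against 0.233 and 0.112 FPKM; adjusted p = 0.0893). TERT, the catalytic subunit of telomerase, had 31 and 16 reads at 30 Gy, against 1 and 1 reads at 0 Gy (adjusted p = 0.171). LUM, lumican, a matrix proteoglycan on the fibroblast list, had 43 and 63 reads, against 1 and 5 (adjusted p = 0.0852), and FAP, another gene of that list, 21 and 28, against 2 and 4 (adjusted p = 0.134). SOX2 had 22 and 19 reads at 30 Gy, against 11 and 4 at 0 Gy (adjusted p = 0.210). All of these were higher at 30 Gy, but others of the 10 were lower. ALPP had 1 and 3 reads at 30 Gy, against 13 and 14 at 0 Gy (limma adjusted p = 0.124). TRIM29 had 8 and 9 reads at 30 Gy, against 32 and 25 at 0 Gy (limma adjusted p = 0.243).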
